A study of Homo sapiens with 8 samples.

Results

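The transcripts of the enzymes that place and remove methyl groups on histone lysines were followed in LNCaP and 22Rv1 cells, a pair of human lines from prostate cancer. Members were chosen by symbol, as probe sets of a single gene whose symbol starts with KDM, KMT, SETD, PRDM or NSD and a digit, or is one of EZH1, EZH2, EHMT1, EHMT2, SUV39H1, SUV39H2, DOT1L, JMJD6, JMJD1C, ASH1L and ASH2L. The rule found 67 of the 19775 genes with such a probe set, and 204 of the 41097 probe sets. Protein-coding genes made up 62 of the 67 and are described as the members, while 5 noncoding transcripts that share the prefixes (KMT2E-AS1, PRDM16-DT, PRDM4-AS1, PRDM10-DT and KDM7A-DT) were kept apart. ASH1L and KDM4E were not analysed here.

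Total RNA of each line was hybridized to 4 Affymetrix U133 Plus 2.0 arrays, 1 for each treatment, so that there were 8 arrays and no repeat of any of them. LNCaP comes from a lymph node metastasis and 22Rv1 from a xenograft, and both were grown in the same medium. Cells were left untreated, or were kept for 4 hours in 10 mM caffeine, which the study used against nonsense-mediated mRNA decay (NMD), the pathway that destroys mRNAs with early stop codons. After the caffeine step other plates were washed and given 2 μg/ml actinomycin D, an inhibitor of transcription, for another 4 hours, either with 10 mM caffeine or alone. Comparing the last pair was meant to show differences in degradation alone, and caffeine against untreated shows degradation and new transcription together.

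The deposited values are gcRMA signals on the log2 scale, which the authors had corrected for background and brought to a common distribution by quantile normalization. A difference of 1 on this scale is a doubling of the signal. A gene is given by its brightest probe set, the one with the highest mean over the arrays, unless another is named. A signal of at least 4 on an array is called detected here. All arrays carry the same distribution of values, so each signal stands relative to the rest of its array, and a loss common to all mRNAs cannot be seen. Fewer transcripts per cell and fewer cells of a kind cannot be told apart in such bulk RNA. The epithelial markers KRT8, KRT18, EPCAM, CDH1, KLK3, HOXB13 and FOLH1 were detected on every array, at 5.56 to 13.4. The leukocyte marker PTPRC and the endothelial marker PECAM1 stayed between 2.27 and 2.67, while the fibroblast gene COL1A1 lay at 5.29 to 8.65, VIM at 6.58 to 11.32, and DCN at 5.56 to 7.06 in 22Rv1 against 2.27 to 4.19 in LNCaP. One array stood apart. On LNCaP given actinomycin D with caffeine the mean of 3 probe sets for 18S ribosomal RNA was 11.7, against 4.09 to 6.25 on the other LNCaP arrays and 5.09 to 7.08 in 22Rv1.

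Lysine methylation marks the state of a gene rather than its sequence. Methyl groups on lysine 4 of histone H3 (H3K4) lie at active promoters and enhancers and those on H3K36 along transcribed genes, whereas H3K9 and H3K27 methylation marks silent chromatin and H4K20 methylation is tied to compact chromatin and the cell cycle. Methyltransferases of the SET domain type, and DOT1L, which has none, place the marks. Demethylases of the LSD1 type and of the Jumonji type remove them. EZH2, the catalytic subunit of Polycomb repressive complex 2 (PRC2), and KDM1A are known for their high levels in aggressive prostate cancer.

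Most of the enzymes were expressed. Of the 62 coding members 48 were detected on all 8 arrays, 4 on some of them (SETD1A, SUV39H1, KDM5D and PRDM12) and 10 on none. Of the 14 PRDM genes 8 were under the floor throughout, among them PRDM1, PRDM9 and PRDM14, which are known from lymphocyte and germ cell development. KDM4D and KDM8 were not detected either. Among the noncoding transcripts PRDM16-DT and KDM7A-DT were detected on all 8 arrays, at 4.17 to 5.05, KMT2E-AS1 on 4, and PRDM4-AS1 and PRDM10-DT on none.

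**Figure D1:**
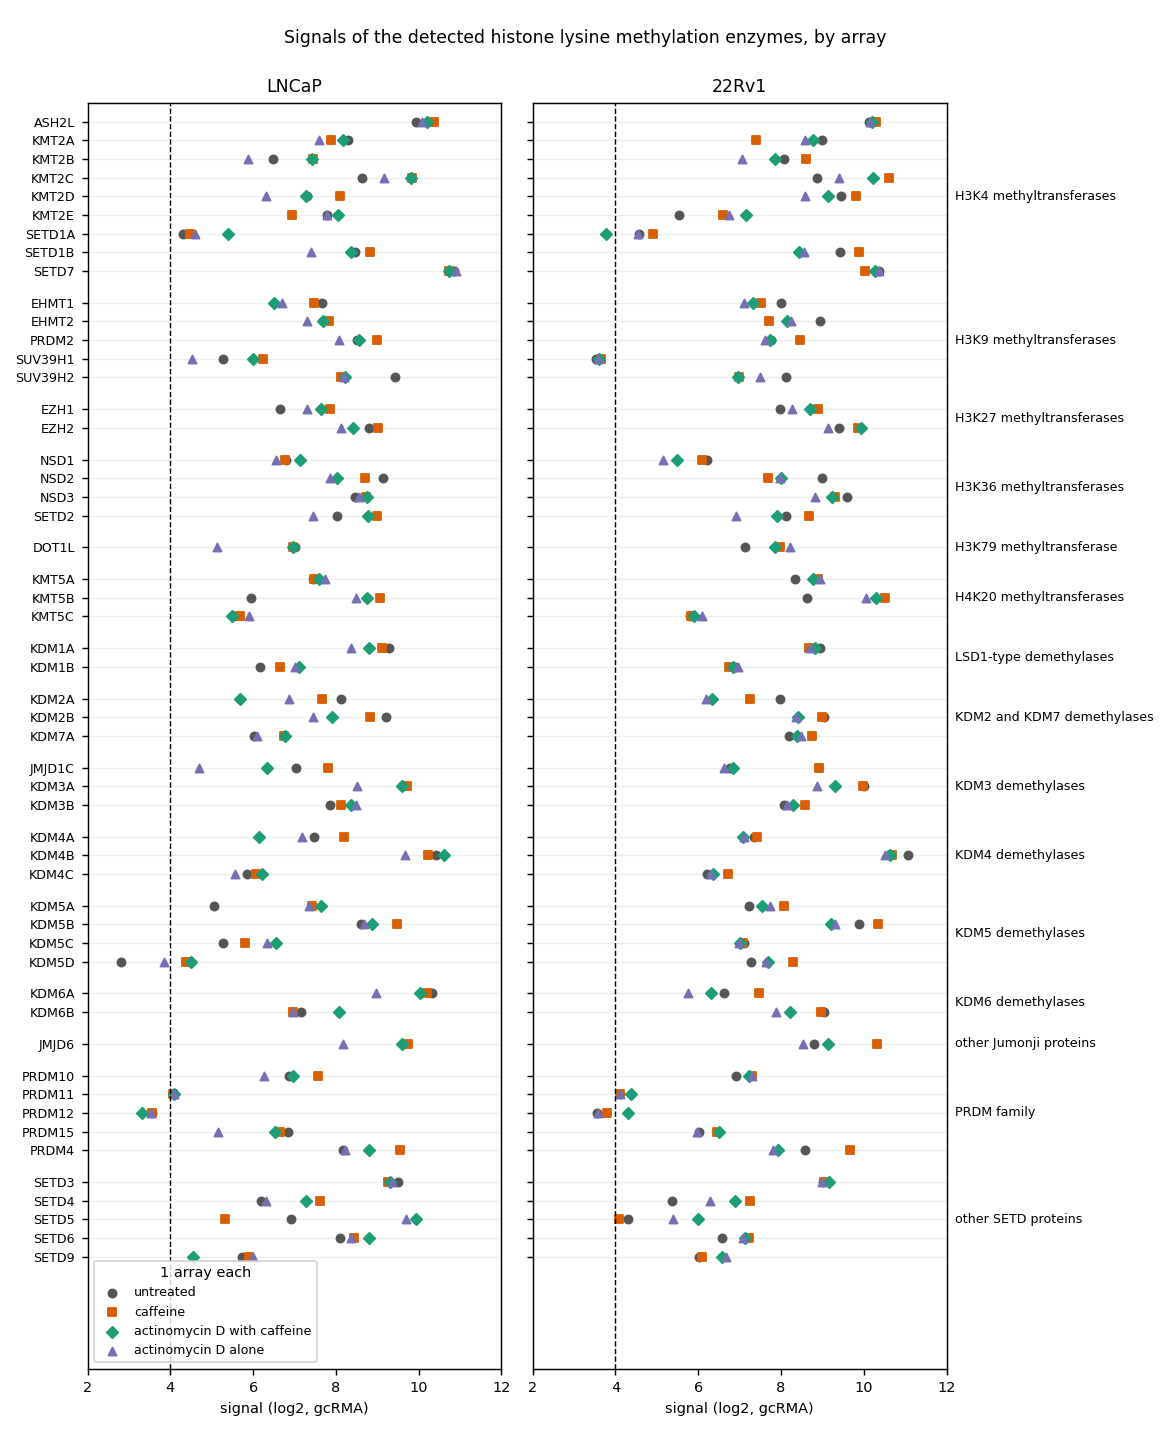
Log2 signals (x axis) of the 52 coding members detected on at least 1 array, grouped by substrate or type, with LNCaP on the left and 22Rv1 on the right. Each symbol is 1 array, the dashed line is the detection floor of 4, and levels are to be compared within a gene. KMT5B and KDM5A stand far left of their other arrays in untreated LNCaP, and JMJD1C in LNCaP given actinomycin D alone.

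The main test took the lines as the repeats of each treatment and, between the lines, the treatments as the repeats of each line. limma was fitted with terms for cell line and treatment to the 21453 probe sets whose mean reached 4, with Benjamini-Hochberg adjustment over all of them. Of the members 51 were tested. Where each line is given by itself, its difference rests on a pair of single arrays and has no test.

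Caffeine was the first comparison. No member passed in limma at an adjusted p under 0.05, and at an unadjusted p under 0.05 there were 14 higher and 3 lower, where 10.2% and 7.58% of all genes were. At the adjusted p 0.0277% of all 10842 genes tested passed as higher and 0.0% as lower. By size, 5 of the 50 members detected in both lines were higher by more than 1 in both (KMT5B, SETD4, KMT2C, PRDM4 and KDM5D), and 1 was lower (SUV39H2). Over all 10178 detected genes the shares were 2.53% higher and 1.36% lower, against 10.0% and 2.0% of the members. The median difference of the members was 0.20 in LNCaP and 0.38 in 22Rv1, beside -0.02 in each line for all detected genes. KDM5D counts as detected in LNCaP through the caffeine array alone, and when signals under 4 are set to 4 it no longer passes and 5 of the 6 are left.

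KMT5B (SUV420H1), which methylates H4K20, had the largest value. Its signal was 5.96 in untreated LNCaP and 9.06, 8.75 and 8.49 after caffeine, actinomycin D with caffeine and actinomycin D alone, and in 22Rv1 it was 8.63, 10.51, 10.29 and 10.05 in the same order. In both lines the untreated array was thus the lowest and the 3 that had seen caffeine lay close together. The limma difference was 2.49 (SE 0.34, adjusted p = 0.0691). This holds for the brightest probe set alone, since limma gave -0.80 for the second brightest of KMT5B and -2.20 for the third.

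KMT2C (MLL3), an enhancer H3K4 methyltransferase, measured 8.62 untreated and 9.85 with caffeine in LNCaP, and 8.87 and 10.60 in 22Rv1. The limma difference was 1.48 (SE 0.22, adjusted p = 0.0691), and its second brightest probe set differed by 1.41 in LNCaP and 1.33 in 22Rv1. SETD4, a SET domain protein reported to act on H4K20, went from 6.20 to 7.62 in LNCaP and from 5.37 to 7.24 in 22Rv1, with a limma difference of 1.65 (SE 0.25, adjusted p = 0.0691). All 3 missed the threshold here. With the filter at a mean of 6 in place of 4, limma called KMT2C, KMT5B and SETD4 higher, and with a variance trend it called KMT2C and KMT5B.

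PRDM4, a zinc finger protein, measured 8.18 untreated and 9.55 with caffeine in LNCaP, and 8.58 and 9.66 in 22Rv1. These are differences of 1.37 and 1.08, beside 1.15 and 1.09 for its second probe set. KDM5D, the H3K4 demethylase encoded on the Y chromosome, lay at 2.80 untreated and 4.37 with caffeine in LNCaP, so that its LNCaP baseline was under the floor, and at 7.28 and 8.29 in 22Rv1. Its paralogue KDM5A (JARID1A) measured 5.04 and 7.41 in LNCaP, a difference of 2.37, and 7.22 and 8.06 in 22Rv1, a difference of 0.84. All 4 detected KDM5A probe sets were higher with caffeine, by 1.97 to 2.70 in LNCaP and 0.31 to 1.18 in 22Rv1. The limma difference of KDM5A was 1.60 (SE 0.53, adjusted p = 0.213).

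The PRC2 methyltransferase EZH1 was at 6.64 and 7.85 in LNCaP and 7.97 and 8.90 in 22Rv1, before and with caffeine. Its limma difference was 1.07 (SE 0.20, adjusted p = 0.0932). The 4 detected probe sets of EZH1 were higher in both lines, by 0.62 to 2.85 in LNCaP and 0.56 to 2.15 in 22Rv1, where the upper ends come from a probe set that was under the floor in both untreated lines. When all probe sets of each gene were averaged it was the 1 member called. EZH2, its paralogue, differed by 0.21 and 0.45 (limma 0.33, SE 0.27, adjusted p = 0.586). On the lower side SUV39H2, an H3K9 methyltransferase, went from 9.42 to 8.13 in LNCaP and from 8.12 to 6.99 in 22Rv1 (limma -1.21, SE 0.23, adjusted p = 0.0932).

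Other lower values were less even between lines or probe sets. KDM2A, an H3K36 demethylase, differed by -0.47 in LNCaP and -0.73 in 22Rv1, but by 0.06 and 0.03 with the third brightest of its probe sets. For NSD2, an H3K36 methyltransferase, the differences were -0.44 and -1.31 with the brightest probe set, but 0.85 and 2.14 with the third. KMT2A (MLL1), an H3K4 methyltransferase, gave -0.42 and -1.59 with the brightest and 0.16 and 0.93 with the fifth. Among enzymes chosen for their known roles, KDM1A (LSD1) differed by -0.18 and -0.28, KDM5B by 0.88 and 0.47, KDM6B by -0.18 and -0.06, SUV39H1 by 0.96 in LNCaP, DOT1L by -0.07 and 0.85, EHMT2 (G9a) by 0.15 and -1.23, and KMT5A by 0.02 and 0.56.

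By substrate, no group had a member called. Over all 10178 detected genes 3349 were higher in both lines and 3764 lower in both, and of the 50 members 27 and 12. Of the 9 detected H3K4 methyltransferases, with ASH2L and KMT2E counted among them, 6 were higher in both lines and 2 lower in both. Of the 4 KDM5 demethylases, which oppose them, 3 were higher in both lines, with medians of 1.22 and 0.65. The 3 H4K20 methyltransferases were higher in both lines, and of the 4 detected H3K9 methyltransferases 1 was higher and 2 were lower in both. Of the 4 H3K36 methyltransferases 1 was higher and 2 were lower in both. For the 3 KDM2 and KDM7 demethylases these counts were 1 and 2, and for the 3 detected KDM4 demethylases 2 and 1.

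The promoters of the 5 members higher by more than 1 in both lines after caffeine are shown so that the start regions of this set can be compared, as the 250 bases before the first start listed for the gene by RefSeq on GRCh38.p14, 5′ to 3′ on the strand of the gene. Both strands were searched for the cAMP response element TGACGTCA, its shorter form TGACG, which lies within it, the amino acid response element TGATGNAA, the GC box GGGCGG and the CCAAT box CCAAT. Capitals mark the matches.
KMT5B (chr11:68213649-68213898, minus strand): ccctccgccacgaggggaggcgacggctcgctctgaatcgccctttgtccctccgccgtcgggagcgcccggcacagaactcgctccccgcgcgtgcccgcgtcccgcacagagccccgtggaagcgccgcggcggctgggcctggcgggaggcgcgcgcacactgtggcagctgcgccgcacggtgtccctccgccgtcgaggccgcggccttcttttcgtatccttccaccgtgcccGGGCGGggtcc
SETD4 (chr21:36060527-36060776, minus strand): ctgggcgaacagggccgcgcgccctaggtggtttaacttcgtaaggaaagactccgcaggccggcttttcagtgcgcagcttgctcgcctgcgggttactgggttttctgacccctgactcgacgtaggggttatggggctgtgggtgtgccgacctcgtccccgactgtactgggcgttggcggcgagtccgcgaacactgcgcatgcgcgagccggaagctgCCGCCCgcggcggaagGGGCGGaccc
KMT2C (chr7:152436004-152436253, minus strand): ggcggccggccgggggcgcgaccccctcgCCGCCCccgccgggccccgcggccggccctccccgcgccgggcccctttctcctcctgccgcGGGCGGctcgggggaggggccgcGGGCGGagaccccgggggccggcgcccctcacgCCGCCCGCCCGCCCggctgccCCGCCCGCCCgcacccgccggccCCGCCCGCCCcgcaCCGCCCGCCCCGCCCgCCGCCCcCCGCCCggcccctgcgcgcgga
PRDM4 (chr12:107761138-107761387, minus strand): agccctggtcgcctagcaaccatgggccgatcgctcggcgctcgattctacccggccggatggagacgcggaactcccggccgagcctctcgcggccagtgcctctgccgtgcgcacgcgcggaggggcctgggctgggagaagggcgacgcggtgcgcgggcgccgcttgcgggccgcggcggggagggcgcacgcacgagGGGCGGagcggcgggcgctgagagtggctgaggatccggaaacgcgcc
KDM5D (chrY:19744727-19744976, minus strand): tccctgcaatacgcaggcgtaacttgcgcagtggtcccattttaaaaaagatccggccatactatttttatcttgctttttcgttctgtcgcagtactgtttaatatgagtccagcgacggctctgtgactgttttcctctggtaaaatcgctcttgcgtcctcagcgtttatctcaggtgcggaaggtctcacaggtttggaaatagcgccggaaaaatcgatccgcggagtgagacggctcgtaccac

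GC boxes were the motif found. KMT2C held 15 matches in 1 window, many of them overlapping, SETD4 held 2, KMT5B and PRDM4 1 each, and KDM5D 0. A GC box stands in 42.6% of the 35116 promoter windows of the table. None of the 5 windows held the full cAMP element (1.65% of all windows), its shorter form (21.2%), the amino acid element (3.14%) or CCAAT (32.0%). KMT5B has 3 starts in the table, of which the first is printed.

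**Figure D2:**
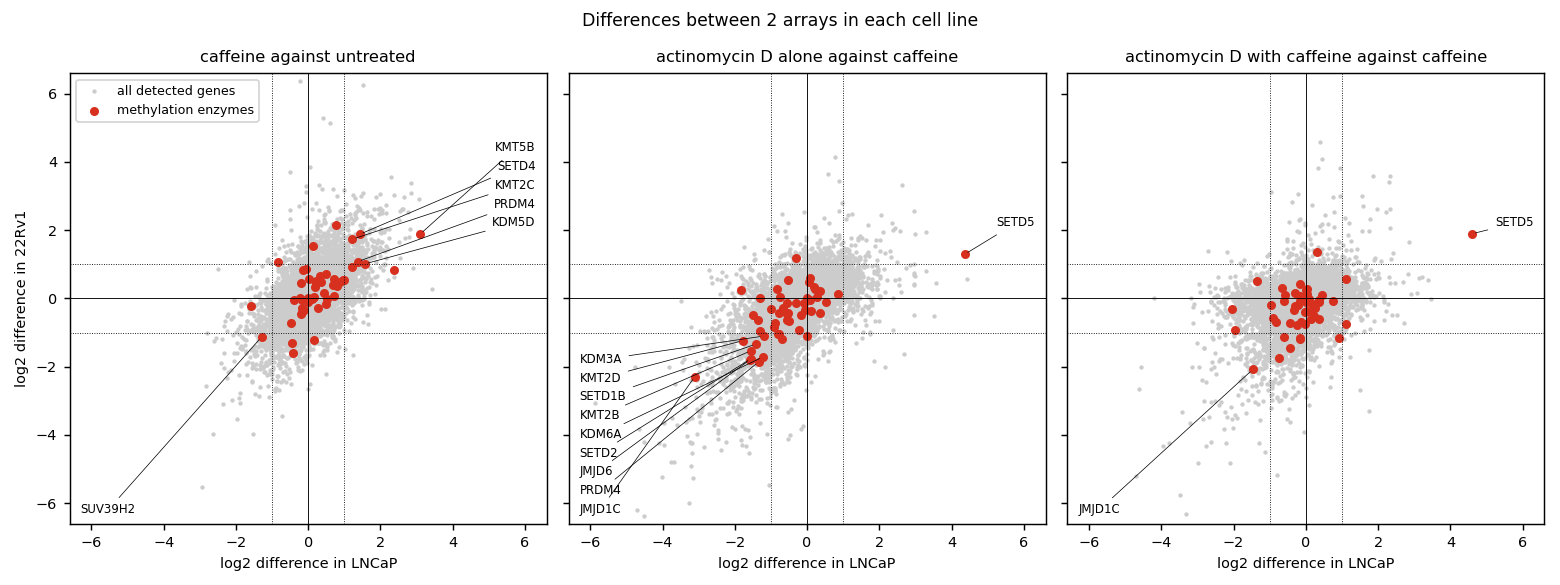
Log2 difference between a pair of arrays in LNCaP (x axis) and 22Rv1 (y axis), for all genes detected in both lines (grey) and the methylation enzymes (red), with dotted lines at -1 and 1. Named members are past 1 in both lines; after caffeine 5 lie to the upper right, and after actinomycin D alone 9 lie to the lower left.

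Actinomycin D given alone after caffeine was the 1 treatment comparison in which limma called members. There 2 members fell against caffeine, KMT2D and SETD2, and none rose. Over all genes 2.41% were called lower and 0.157% higher, against 3.92% of the members lower. At an unadjusted p under 0.05 there were 19 members lower and 1 higher, where 14.2% and 6.56% of all genes were. By size, 9 of 50 members (18%) were lower by more than 1 in both lines, beside 5.92% of all 10168 detected genes, and 1 (2.0%) was higher, beside 0.718%. The 9 were JMJD1C, JMJD6, KDM3A, KDM6A, KMT2B, KMT2D, PRDM4, SETD1B and SETD2. The members' median was -0.56 in LNCaP and -0.42 in 22Rv1, against -0.09 and 0.02 for all genes. Of the 50 members 31 were lower in both lines, as were 3825 of the 10168 genes. Both comparisons of actinomycin D against caffeine use the same caffeine arrays as caffeine against untreated, with the opposite sign. A rise with caffeine and a fall from it are thus not separate observations.

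KMT2D (MLL4), like KMT2C a methyltransferase of enhancers, measured 8.09 with caffeine, 7.28 after actinomycin D with caffeine and 6.31 after actinomycin D alone in LNCaP, and 9.82, 9.12 and 8.58 in 22Rv1. It fell by 1.51 (SE 0.22, adjusted p = 0.0371, limma). Its 2 other detected probe sets lay between -0.96 and -1.89 over both lines. In each line the order was the same, with caffeine alone highest and actinomycin D alone lowest.

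SETD2, which places trimethylation on H3K36, measured 9.0, 8.77 and 7.45 in the same order in LNCaP and 8.68, 7.90 and 6.91 in 22Rv1. It fell by 1.66 (SE 0.28, adjusted p = 0.0477, limma). The second brightest probe set of SETD2 gave -1.0 and -1.57, and the third -0.50 in LNCaP and 0.27 in 22Rv1. Both calls are lost when any 1 of the 8 arrays is left out, with no filter, with no cell line block and with only the 4 arrays compared, each of which leaves 0 members called, and with robust variances KMT2D is left. With the filter at a mean of 6 there were 7 calls, all lower, with JMJD1C, KDM3A, KDM6A, KMT2B and PRDM4 added.

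Among the demethylases JMJD1C, a KDM3 relative, had the largest value. It was at 7.80 with caffeine and 4.69 after actinomycin D alone in LNCaP, and at 8.92 and 6.63 in 22Rv1 (limma -2.70, SE 0.50, adjusted p = 0.058). KDM6A (UTX), which removes H3K27 methylation, went from 10.20 to 8.97 in LNCaP and from 7.46 to 5.74 in 22Rv1 (limma -1.47, SE 0.30, adjusted p = 0.0683). Its 2 other probe sets detected in both lines lay between -0.87 and -2.09. KDM3A, an H3K9 demethylase, differed by -1.20 and -1.10. JMJD6, a Jumonji protein that also hydroxylates lysine, gave -1.58 and -1.80, and -0.57 and 0.69 with the third brightest of its probe sets.

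KMT2B (MLL2), close to KMT2A in its activity, differed by -1.56 in LNCaP and -1.54 in 22Rv1, and SETD1B, the catalytic subunit of another H3K4 complex, by -1.42 and -1.34. PRDM4, which had been higher with caffeine on the same caffeine arrays, gave -1.34 and -1.86. The second probe set of KMT2B stayed between 4.27 and 4.48 on all arrays. EZH2 differed by -0.88 and -0.71, EZH1 by -0.55 and -0.63, KDM5B by -0.80 and -1.04, KDM1A by -0.74 and 0.03, and NSD2 by -0.85 and 0.29. DOT1L, the H3K79 methyltransferase, measured 6.96 and 5.13 in LNCaP but 7.99 and 8.22 in 22Rv1.

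SETD5 was the 1 member past 1 on the higher side. Its brightest probe set read 5.33 with caffeine, 9.92 after actinomycin D with caffeine and 9.69 after actinomycin D alone in LNCaP, and 4.09, 5.99 and 5.38 in 22Rv1 (limma 2.83, SE 0.73, adjusted p = 0.107). The 2 other detected probe sets did not show such a step in common, with 1.5 and 0.84 for the second brightest and 0.05 and -0.38 for the third. Smaller differences of one sign were seen for KDM1B (0.35 and 0.23), KMT5C (0.23 and 0.26) and SETD7 (0.18 and 0.33).

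The arrays given actinomycin D differed in their poly-A controls, 24 probe sets for bacterial transcripts added to the RNA. Their mean was 6.18 to 6.40 on the LNCaP arrays without actinomycin D and 7.32 to 7.71 on those with it, and 6.80 to 7.06 and 7.57 to 7.97 in 22Rv1. Scaling the arrays on them moved the median of all tested probe sets from 0.05 to -1.30 for actinomycin D alone, from 0.02 to -0.93 for actinomycin D with caffeine, and from -0.03 to 0.20 for caffeine. On that scale 48 members were called after actinomycin D alone, 1 of them higher and the rest lower, as were 17490 of the 21453 probe sets lower and 59 higher, where the deposited values gave 399 and 102. KDM1B, KMT5C and SETD7 then turned to -1.06, -1.10 and -1.09. What is given above is thus the loss of a transcript relative to the others on its array.

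Actinomycin D with caffeine against caffeine gave no member called in limma, and 0.0% of all genes, with 9 members lower and 1 higher at an unadjusted p under 0.05, where 7.79% and 3.99% of all genes were. By size, 1 member was lower by more than 1 in both lines (2.0%, beside 2.22% of 10151 genes) and 1 higher (2.0%, beside 0.384%). JMJD1C was the lower one, at 6.33 against 7.80 in LNCaP and 6.84 against 8.92 in 22Rv1, and SETD5 the higher, with differences of 4.60 and 1.89. The LNCaP side of this comparison rests on the array with high 18S signal, whose part in it was not tested.

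On that array KDM4A, an H3K9 and H3K36 demethylase, read 6.14 against 7.19 to 8.19 on the other LNCaP arrays, KDM2A 5.68 against 6.87 to 8.13, and SETD9 4.55 against 5.74 to 5.99. In 22Rv1 the differences of these 3 were -0.33, -0.91 and 0.50. PRDM4 gave -0.75 in LNCaP and -1.74 in 22Rv1 and KMT2D -0.82 and -0.70. On the higher side KMT2E, an H3K4-reading relative of the KMT2 enzymes, gave 1.11 and 0.56, KDM1B 0.44 and 0.11 and KMT2A 0.29 and 1.36. The third brightest probe set of KMT2E went the other way, by -3.14 and -1.30, and with the poly-A scaling the limma differences of KMT2E, KDM1B and KMT2A were -0.12, -0.68 and -0.12.

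The arrays given actinomycin D with and without caffeine address which transcripts are kept with caffeine while transcription is blocked. No member passed in limma, nor did any gene (0.0%), with 8 members higher and 0 lower at an unadjusted p under 0.05, where 5.37% and 1.38% of all genes were. No member was past 1 in both lines either, where 1.13% of 10058 genes were higher and 0.0199% lower. The members' median was 0.44 in LNCaP and 0.13 in 22Rv1, against 0.10 and -0.02 for all genes, and 31 of 50 were higher with caffeine in both lines, as were 3168 of the 10058 genes, with 5 members lower in both.

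SETD2 had the largest common value, with 8.77 against 7.45 in LNCaP and 7.90 against 6.91 in 22Rv1, differences of 1.32 and 0.99. KMT2B followed with 1.54 and 0.78, then KMT2C with 0.66 and 0.81 and SETD4 with 0.97 and 0.61. These values use the same actinomycin D arrays as the comparison before, so they are not a separate observation of the low signal without caffeine. The lowest were KMT5C (-0.40 and -0.18), KMT5A (-0.13 and -0.16), SETD7 (-0.18 and -0.10) and SETD9 (-1.45 and -0.10), and the limma difference of SETD9 was 0.05 without the LNCaP array with high 18S signal. Scaled on the poly-A controls, which moved the median of all probe sets to 0.39, those of KMT5C, KMT5A and SETD7 were 0.11, 0.25 and 0.26.

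Probe sets of the same gene often disagreed. Such a gene is given by its brightest probe set, so these cases were set out after their values were seen. For KMT5B in 22Rv1 the third brightest probe set was at 5.29 untreated and 2.36 to 2.37 on the 3 arrays that had seen caffeine. The second was at 5.49 untreated, 4.0 with caffeine and 3.13 after actinomycin D alone, while the brightest was higher on those arrays. The third brightest probe set of KMT2C read 3.25 untreated and 2.82 with caffeine in LNCaP, and 7.47 and 8.32 on the arrays given actinomycin D with and without caffeine. In 22Rv1 it stayed between 2.35 and 2.65 throughout.

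NSD3, an H3K36 methyltransferase, showed the same step in 1 of its probe sets. The LNCaP signal of the third brightest was 4.63 untreated, 3.76 with caffeine, 7.81 with actinomycin D and caffeine and 8.63 with actinomycin D alone, against 3.77 to 5.38 in 22Rv1. Its brightest probe set stayed at 8.45 to 8.74 in LNCaP. So 1 probe set each of SETD5, KMT2C and NSD3 was high on both LNCaP arrays that had actinomycin D, whether or not 18S signal was high. KMT2E went the opposite way, with the third brightest of its probe sets at 7.06 and 7.07 on the LNCaP arrays without actinomycin D and 3.93 and 4.70 on those with it, and at 7.07 and 7.34 against 6.04 and 4.89 in 22Rv1.

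**Figure D3:**
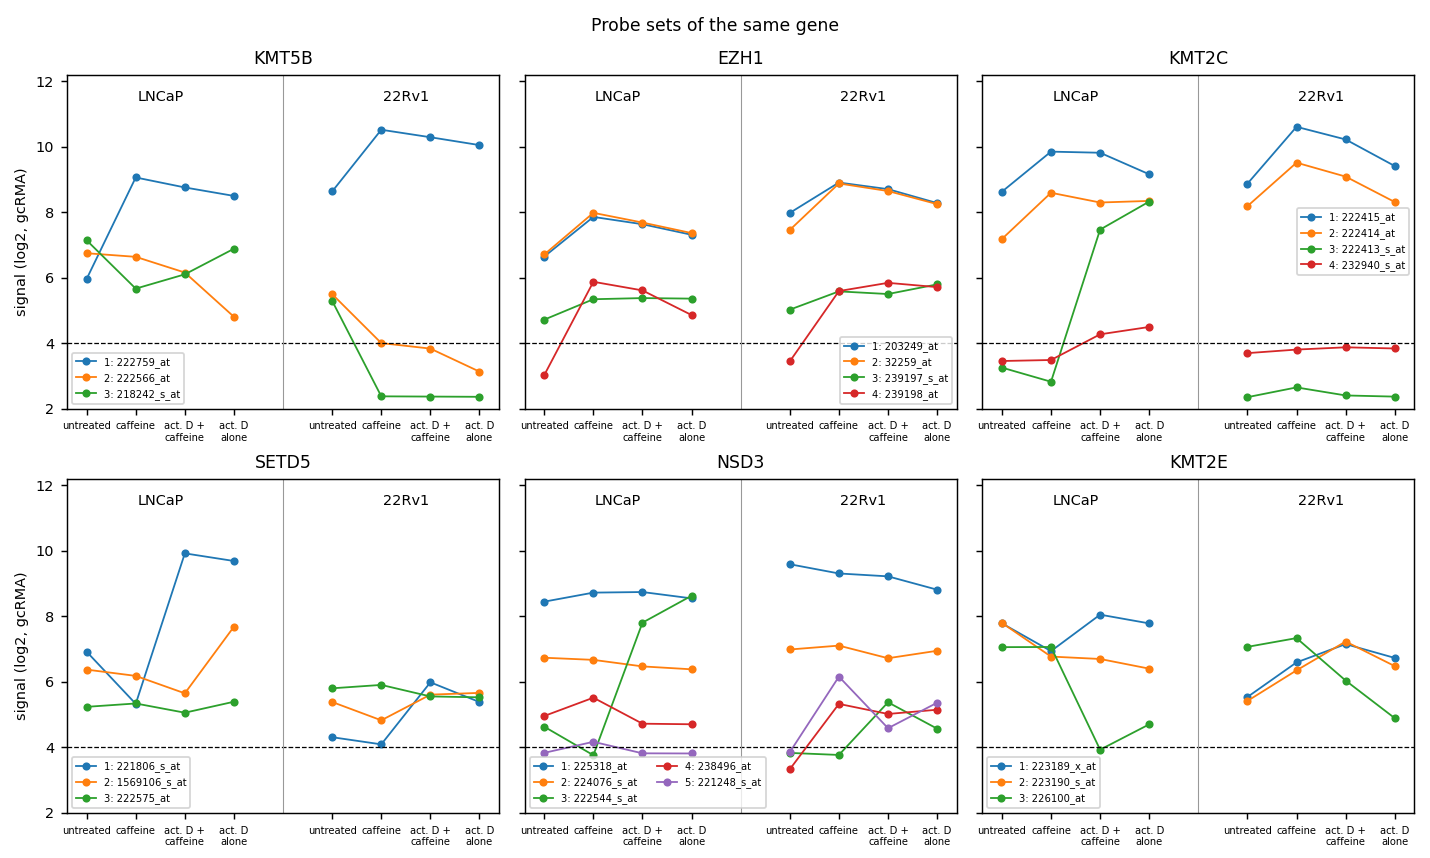
Log2 signals (y axis) of every probe set detected on at least 1 array for 6 genes, over the 4 treatments (x axis) in LNCaP and 22Rv1, 1 array a point, numbered by brightness in the legends, with the detection floor of 4 dashed. The 4 EZH1 probe sets are all higher with caffeine, the 3 of KMT5B part after caffeine, and probe set 3 of KMT2C, 1 of SETD5 and 3 of NSD3 step up to 7.47 or more in LNCaP with actinomycin D.

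On the deposited values most calls came between the lines, where each side had more arrays than in a treatment comparison. In this comparison the 4 differently treated arrays of a line stood in for repeats of it. Over the 4 treatments limma called 9 members higher in LNCaP and 14 lower, 17.6% and 27.5% of the 51 tested, beside 28.5% and 26.8% of all genes. Leaving out 1 array at a time gave 18 to 22 calls. Scaled on the poly-A controls, which moved the median of all probe sets from 0.02 to 0.46, limma called 13 members higher and 8 lower. On that scale it called 9170 of all 21453 probe sets higher and 3247 lower. On the untreated arrays 3 members were higher by more than 2 in LNCaP (5.88%, beside 6.78% of 11274 genes) and 5 lower (9.8%, beside 7.43%).

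KDM6A and KDM5D were the furthest apart. KDM6A, from the X chromosome, measured 8.97 to 10.33 in LNCaP and 5.74 to 7.46 in 22Rv1, so the lines did not overlap (limma 3.35, SE 0.21, adjusted p = 0.000121). All 3 of its probe sets detected in both lines were higher in untreated LNCaP, by 3.21 to 3.80. KDM5D was at 2.80 to 4.51 in LNCaP and 7.28 to 8.29 in 22Rv1 (limma -3.84, SE 0.23, adjusted p = 0.000104), with 2 of the 4 LNCaP arrays under the floor. KDM5D is 1 of the 14 counted as lower, but it was admitted to the test through its 22Rv1 arrays, so its call is no separate support. Its X-linked paralogue KDM5C was lower in LNCaP too, at 5.28 to 6.56 against 6.97 to 7.10 (limma -1.04, SE 0.26, adjusted p = 0.0168).

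Among H3K4 methyltransferases KMT2D was lower in LNCaP, at 6.31 to 8.09 against 8.58 to 9.82 (limma -2.00, SE 0.16, adjusted p = 0.000263), and its 3 detected probe sets differed by -1.88 to -2.14 between the untreated arrays. KMT2B (limma -1.09) and SETD1B (-0.80) were lower as well, and SETD7 (0.56) and KMT2E (1.14) higher, though the third brightest probe set of KMT2E gave -0.65. In the H3K9 group SUV39H2 (limma 1.10) and PRDM2 (0.64) were higher in LNCaP. SUV39H1, which marks heterochromatin, was at 4.53 to 6.23 in LNCaP and under the floor, at 3.52 to 3.64, in 22Rv1. It is 1 of the 9 counted as higher, but it was admitted to the test through its LNCaP arrays, so its call is no separate support.

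Both H3K27 methyltransferases were lower in LNCaP. EZH2 measured 8.13 to 9.01 in LNCaP and 9.14 to 9.93 in 22Rv1 (limma -0.99, SE 0.19, adjusted p = 0.00645), so that the lines did not overlap, and EZH1 6.64 to 7.85 against 7.97 to 8.90 (limma -1.11, SE 0.14, adjusted p = 0.00145). Of the enzymes that remove this mark KDM6A was higher, as above, and KDM6B (JMJD3) lower, at 6.96 to 8.07 against 7.88 to 9.03 (limma -1.24, SE 0.34, adjusted p = 0.0233). KDM7A, a demethylase of H3K9 and H3K27, was lower by 2.05 (SE 0.17, adjusted p = 0.000332, limma).

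The other calls were KMT5A (-1.18) and KMT5B (-1.80) for H4K20, NSD1 (1.07) and NSD3 (-0.62) for H3K36, KDM5B (-0.78) and KDM4C (-0.48) among demethylases, and SETD5 (3.02) and SETD6 (1.42) among the other SET domain proteins. The sign of KMT5B was opposite with its other probe sets, at 1.97 and 3.35. So it was with the third brightest of SETD5 (-0.44), the fourth of KMT5A (1.27), the second of NSD1 (-0.13) and the third and the fourth of NSD3 (1.82 and 0.27). KDM5A, which gave -2.18 between the untreated arrays, differed by -0.78 over all treatments (SE 0.37, adjusted p = 0.128) and was not called. For KDM1A (limma 0.11, adjusted p = 0.641) and DOT1L (-1.29, SE 0.47, adjusted p = 0.0613) no difference passed the test.

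**Figure D4:**
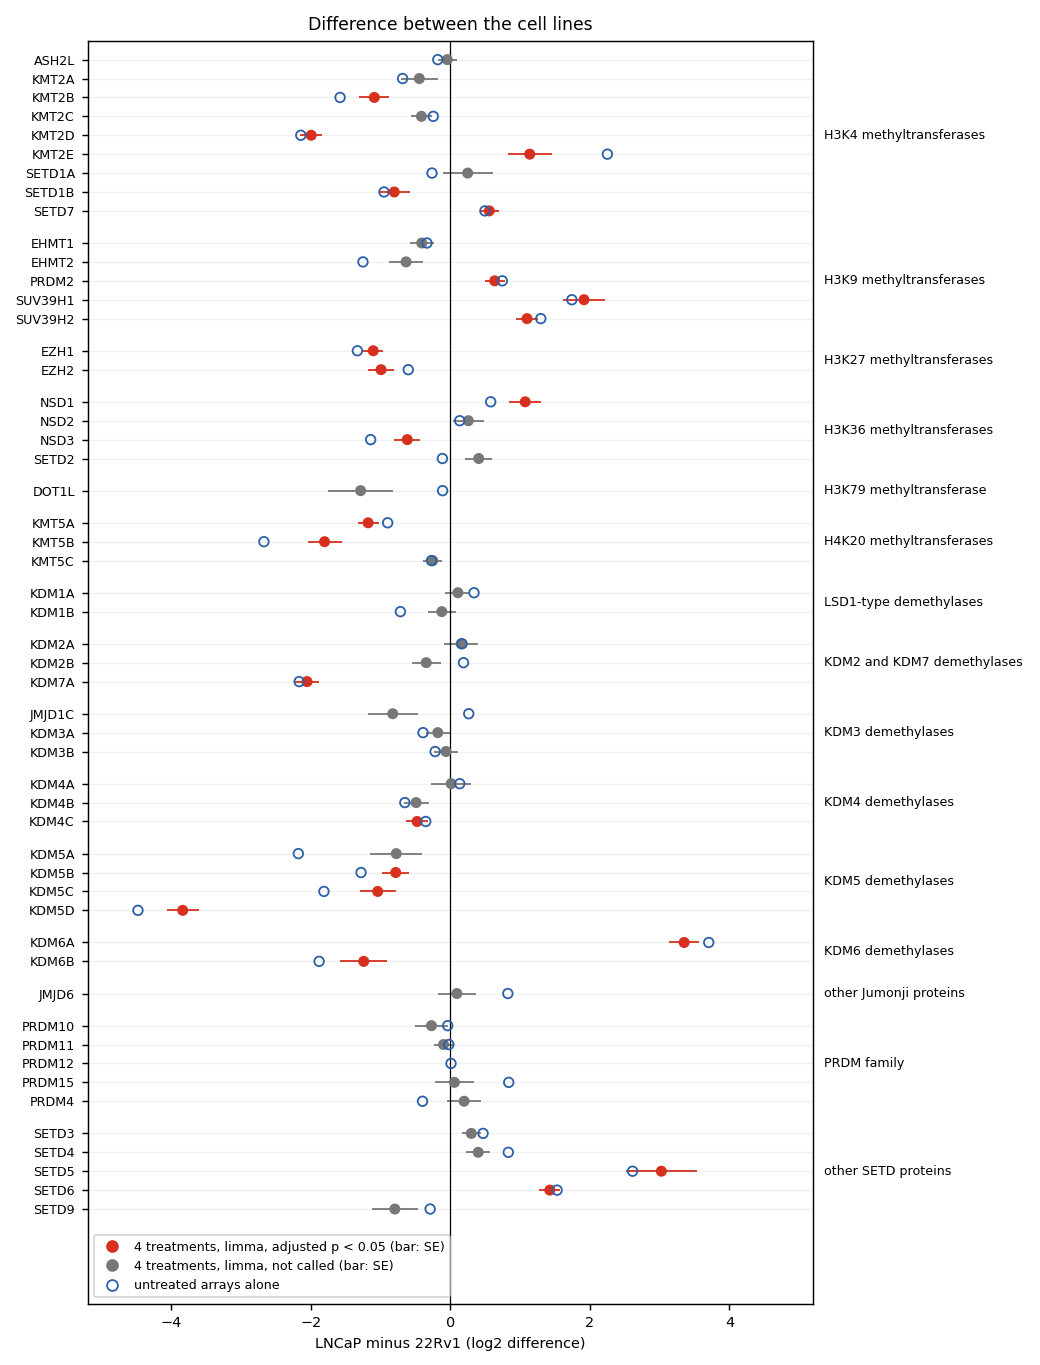
Difference between LNCaP and 22Rv1 on the log2 scale (x axis) for the 52 coding members detected on at least 1 array. Filled points are limma estimates over the 4 treatments with their SE for the 51 members tested, red where the adjusted p is under 0.05, and open circles are the untreated arrays alone. KDM6A and SETD5 lie furthest right and KDM5D furthest left.

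Genes that work with these enzymes were taken as 4 lists. The 9 PRC2 partners, among them EED and SUZ12, had no call in any treatment comparison. Their medians after actinomycin D alone were 0.38 in LNCaP and 0.08 in 22Rv1, with 4 higher and 2 lower in both lines. The lower ones, as EZH1 and EZH2 were, were EED (-0.26 and -0.51) and PHF1 (-0.41 and -0.66). RBBP4, a histone chaperone in this complex, was higher by 1.10 in both lines and MTF2, a Polycomb-like subunit, by 0.88 and 2.55. None of the 11 partners of the H3K4 methyltransferase complexes passed either, with NCOA6, a subunit of the KMT2C and KMT2D complexes, at -1.05 and -1.24 (limma -1.15, SE 0.22, adjusted p = 0.0616).

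Readers of methyl-lysine and their partners held 4 calls of 19, all lower after actinomycin D alone, where 2.41% of all genes were called lower. These calls too are lost with no cell line block, with only the 4 arrays compared and when any 1 of the 6 treated arrays is left out, since no probe set at all is then called. ING1, which binds H3K4 trimethylation, fell by 2.64 (SE 0.30, adjusted p = 0.0264, limma), after having measured 8.42 and 8.91 with caffeine in LNCaP and 22Rv1 and 6.21 and 5.84 after actinomycin D alone. BRD1 fell by 2.05 (adjusted p = 0.0409, limma), MLLT10, a partner of DOT1L, fell by 1.82 (adjusted p = 0.0309, limma), and CBX2, a Polycomb reader of H3K27 methylation, fell by 1.70 (adjusted p = 0.034, limma). Of the 11 further lysine methylation enzymes 0 passed, and SETDB1, an H3K9 methyltransferase, came nearest at -1.65 (SE 0.29, adjusted p = 0.0506). For actinomycin D with against without caffeine, limma called 0 genes of these lists. Yet 3 of the 19 readers exceeded 1 in each line, beside 1.13% of all genes. They were CBX2 (1.71 in LNCaP and 1.11 in 22Rv1), MLLT10 (1.31 and 1.07) and ING1 (1.03 and 1.58). SETDB1 (1.63 and 1.42) was the 1 such gene of the 10 detected further enzymes, and the PRC2 and H3K4 partners had 0. These values share the arrays of actinomycin D alone with the falls above. Caffeine against untreated gave no call in any of the 4 lists. Their medians lay between -0.14 and 0.01 in LNCaP and between -0.31 and -0.05 in 22Rv1. By size 1 of the 19 readers was higher by more than 1 in both lines, beside 2.53% of all detected genes. This was ING1, at 1.26 and 2.29 (limma 1.77, SE 0.30, adjusted p = 0.0783). Of the 10 detected further enzymes 1 was lower by more than 1 in both, SETMAR at -1.27 and -1.23, beside 1.36%. Between the lines, where limma called 28.5% of all genes higher and 26.8% lower, it called 3 of the 9 PRC2 partners, with SUZ12 higher in LNCaP and PHF1 and AEBP2 lower, 5 of the 11 H3K4 partners, all lower in LNCaP, 8 of the 19 readers, 3 of them higher, and 6 of the 11 further enzymes, 4 of them higher.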

How the data were processed

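The authors deposited log2 probe set signals of 8 Affymetrix arrays, background corrected, quantile normalized and summarised with gcRMA, for which the submitters' notes list RMA and GCRMA without versions. Of 54675 probe sets 41097 had 1 gene symbol in the platform annotation, 1801 several and 11777 none. The brightest probe set stood for its gene. limma 3.58.1 in R 4.3.3 was fitted to the 21453 probe sets whose mean reached 4, with terms for cell line and treatment and 3 residual degrees of freedom, and p-values were adjusted by Benjamini-Hochberg over all of them. The lines stand in for repeats, so the p-values rest on how unequally the lines responded, pooled over all treatments. No culture was repeated, so spread between cultures cannot be told apart from true differences between the lines. The number of arrays limits the precision.

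Differences within 1 line compare single arrays and have no test. They were read at 1 in both lines, and at 2 between the untreated arrays. Named genes were those called, those past these limits, the extremes of each comparison, and a set chosen for known roles. The members, lists and tests were chosen with earlier results of these data known, and probe sets that disagree were picked after their values were seen. Promoter windows were taken from a RefSeq table of GRCh38.p14. The alternatives were other filters, variance settings, scalings and limits, the mean or other probe sets of a gene, no cell line block, only the arrays compared, and leaving out each array. Tables and figures were made with Python 3.11.15, numpy 2.4.6, pandas 2.3.3, scipy 1.17.1 and matplotlib 3.10.9.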

Additional observations from a re-analysis of the deposited data

Results flagged for a closer look

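In 5 cases a member differed by at least 0.5 in opposite directions in LNCaP and 22Rv1, each line with 1 pair of arrays. Whether the lines truly differ there was not tested. After caffeine KMT2E was lower by 0.85 in LNCaP and higher by 1.06 in 22Rv1. After actinomycin D alone EHMT2 gave -0.53 and 0.53 against caffeine. After actinomycin D with caffeine KDM6B gave 1.10 and -0.75 against caffeine, and SETD1A 0.91 and -1.15. For SETD1A the arrays with and without caffeine differed by 0.81 and -0.78. The SETD1A and KDM6B values use the LNCaP array with high 18S signal, whose part in them was not tested, and SETD1A lay between 3.76 and 5.39 on all arrays, close to the detection floor.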

How the results depend on the processing

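Each treatment and line has 1 array, and the lines serve as the repeats of a treatment and the treatments as those of a line. Calls near the threshold moved with the settings, for causes that were not tested. After caffeine the calls went from 0 to 3 with a mean of at least 6, 2 with a variance trend, 2 scaled on the poly-A controls and 1 with gene means, which average the probe sets of each gene. After actinomycin D alone they went from 2 to 7, 4, 48 and 4 in the same order, to 1 with robust variances, to 0 with no filter, with no replicate block and with the 4 arrays compared alone, and to 0 whichever array was left out. After actinomycin D with caffeine they went from 0 to 38 on the poly-A scale, where 11137 of all 21453 probe sets were called lower and 72 higher. Between the lines they went from 23 to 11 with no filter and 18 with no replicate block. Calls over all probe sets moved with the settings too. After caffeine they were 164 higher and 43 lower of 14167 with a mean of at least 6. With a variance trend they were 113 and 23 of 21453, and on the poly-A scale 159 and 19. After actinomycin D alone they were 179 and 494, 148 and 562, and 59 and 17490 in the same order. Between the lines 3578 and 3823 of 54675 were called with no filter, and 4643 and 4758 of 21453 with no replicate block. Lines are paired here by treatment and not by a replicate number. Centring on the median, or setting signals under 4 to 4, kept the direction and the side of the threshold for all 56 differences of named members, and no replicate block for 48, with 8 no longer called.

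Members past 1 in both lines after caffeine numbered 6, with 12 past 0.5 and 2 past 1.3. After actinomycin D alone 10 became 19 and 6, and 38 on the poly-A scale. After actinomycin D with caffeine 2 became 8 past 0.5, 19 on the poly-A scale and 0 with gene means. With against without caffeine 0 became 8 past 0.5 and 5 on the poly-A scale. Between the untreated lines 8 were past 2, 18 past 1, 2 past 3, and 4 past 2 with gene means. Shares over all genes were taken at the main limits only.

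The limma differences that turned sign were mostly those of other probe sets. For caffeine they were -0.17 (gene mean), -0.80 and -2.20 for KMT5B, 0.043 for KDM2A, 0.11 (gene mean), 1.5, 0.078 and 0.16 for NSD2, and 0.36, 0.55 and 0.48 for KMT2A. For actinomycin D alone SETD5 gave -0.16, JMJD6 0.062 and KMT2B 0.017, and on the poly-A scale KDM1B -1.06, KMT5C -1.10 and SETD7 -1.09. For actinomycin D with caffeine KDM2A gave 0.61, KMT2A -0.12 (poly-A), -0.33 and -0.66, SETD5 -0.32, KDM1B -0.68 (poly-A) and -0.23, and KMT2E -0.12 (poly-A), -0.33 (gene mean) and -2.22. With against without caffeine the poly-A scale gave 0.11 for KMT5C, 0.26 for SETD7 and 0.25 for KMT5A, and SETD9 ranged from -1.60 to 0.053 with 1 array left out. Between the lines KMT2E gave -0.65, KMT5A 1.27, KMT5B 1.17 (gene mean), 1.97 and 3.35, NSD1 -0.13, NSD3 0.0028 (gene mean), 1.82 and 0.27, and SETD5 -0.44.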
